A study of Mus musculus with 22 samples.

Results

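The miR-200 family is represented here by 6 mature miRNAs, mmu-miR-200a-3p, mmu-miR-200b-3p, mmu-miR-429-3p, mmu-miR-200c-3p, mmu-miR-141-3p and mmu-miR-141-5p. They were chosen by name, as the products of the 2 miR-200 clusters, and are 6 of the 1966 mature names in a table of miRNA read counts from mouse round spermatids (RS). RS are the haploid germ cells that follow meiosis and precede elongation of the sperm head. Small RNA was sequenced from RS of mice 75 to 85 days old, isolated from testes by enzyme digestion and sedimentation through a BSA gradient. The 22 samples fall into 4 groups in 2 experimental batches. Batch 1 held 5 wild-type (WT) and 5 GRTH KO samples, and batch 2 held 6 WT and 6 GRTH KI samples. GRTH (DDX25) is a testis RNA helicase. KO mice lack it, and KI mice carry the human GRTH gene with a missense change that removes the phosphorylated form. Males of both mutant lines are sterile, with RS that do not elongate. All mutant RS therefore came from arrested testes, whereas WT RS came from testes in which later spermatids also form.

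miRNAs are short RNAs cut from hairpin transcripts, and each hairpin can give a 5p and a 3p arm. A miRNA finds its target mRNAs mainly through the seed, a stretch near its 5′ end, so miRNAs with the same seed can pair with the same target sites even when they come from different genes. The miR-200 family is best known in epithelial cells, where it restrains the ZEB transcription factors and so maintains the epithelial state, and in mice Mir200b and Mir429 are also needed in the pituitary for ovulation.

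The family sits at 2 loci, both on the minus strand. On chromosome 4 (GRCm38), Mir200b, Mir200a and Mir429 lie within 1846 bases. The hairpins span chr4:156055681-156055750, chr4:156054896-156054985 and chr4:156053905-156053987. Their mature 3p arms lie in introns of Ttll10, a gene of the tubulin tyrosine ligase-like family, and of the noncoding transcript Gm13648 on the same strand, except that miR-429-3p overlaps an exon of Gm13648. On chromosome 6, Mir200c (chr6:124718322-124718390) and Mir141 (chr6:124717914-124717985) lie within 477 bases. Their mature arms fall in introns of the same-strand noncoding gene Gm15884, and miR-141-3p also overlaps an exon of the unclassified transcript Gm29008.

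The mature sequences from RefSeq are given 5′ to 3′ because the family divides by sequence in a different way than it divides by locus. Capitals mark the seed, bases 2 to 8. The first 3 come from chromosome 4 and the last 3 from chromosome 6.
mmu-miR-200b-3p: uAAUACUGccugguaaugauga
mmu-miR-200a-3p: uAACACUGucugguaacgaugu
mmu-miR-429-3p: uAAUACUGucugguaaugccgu
mmu-miR-200c-3p: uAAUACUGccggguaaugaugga
mmu-miR-141-3p: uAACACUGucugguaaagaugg
mmu-miR-141-5p: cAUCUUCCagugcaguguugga

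The 3p arms carry 2 seeds that differ at 1 position, U4C from mmu-miR-200b-3p to mmu-miR-200a-3p, with positions counted from 1 at the 5′ end. mmu-miR-200b-3p, mmu-miR-429-3p and mmu-miR-200c-3p share one seed, and mmu-miR-200a-3p and mmu-miR-141-3p share the other. Among the 1675 names of the table with a RefSeq sequence, no other name carried either seed. Each seed is thus made at both loci. Across the loci the closest pairs have the same seed. mmu-miR-200b-3p and mmu-miR-200c-3p were identical at 20 of 22 compared positions (U11G and A22G), and mmu-miR-200a-3p and mmu-miR-141-3p also at 20 of 22 (C17A and U22G). mmu-miR-141-5p, the other arm of the Mir141 hairpin, has a seed found in no other of these names. Reads were aligned in a local mode that allows mismatches, so a read of one member may have been counted at a near-identical member, and the size of this exchange cannot be read from the counts.

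Total counts per library ranged from 559957 to 1081333 in batch 1 and from 2067322 to 3239357 in batch 2. Levels are given in TMM CPM, read counts brought to one library size with the TMM method over all 22 libraries. Each read stands for a whole mature miRNA, so counts were not divided by length, and the members are 22 to 23 bases long. A count of 3, taken as the smallest amount the depth can show, was worth 0.926 CPM in the deepest library and 5.36 CPM in the shallowest by library total. Floors cover counting error only. The labelled cell type was checked with 10 spermatid and late spermatocyte miRNAs, a list that cannot tell these cells apart. All 10 were detected in every library, with a summed level of 185000 to 444300 CPM, while the 2 Sertoli and Leydig cell miRNAs, both arms of the miR-202 hairpin, summed to 45.0 to 195 CPM. Blood miRNAs summed to 2510 to 5614 CPM, vessel and stroma miRNAs to 899 to 5245 CPM and muscle miRNAs to 8.10 to 758 CPM.

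All 6 members were detected in all 22 libraries. Together they took 0.0413% to 0.0780% of the counts of a library, so the family was a minor part of the RS miRNAs. mmu-miR-200a-3p was the most abundant member in each group, with a mean of 225 ± 73.3 CPM in WT of batch 1 (SD, n = 5) and 351 ± 59.5 CPM in WT of batch 2 (SD, n = 6). By group mean it stood between place 122 and place 144 of the 1966 names. In both WT groups the order below it was mmu-miR-141-3p, mmu-miR-200c-3p, mmu-miR-200b-3p, mmu-miR-429-3p and mmu-miR-141-5p. In WT of batch 1 the ranges of mmu-miR-141-3p and mmu-miR-200c-3p overlapped, and in both WT groups those of mmu-miR-200c-3p and mmu-miR-200b-3p overlapped. The other neighbours in the WT order did not overlap. In KO, mmu-miR-200b-3p, mmu-miR-141-3p and mmu-miR-200c-3p had means of 69.96, 68.6 and 62.9 CPM with overlapping ranges. mmu-miR-429-3p was low, with 9 to 107 counts per library. mmu-miR-141-5p had 3 to 23 counts per library, close to the smallest amount the depth can show.

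**Figure D1:**
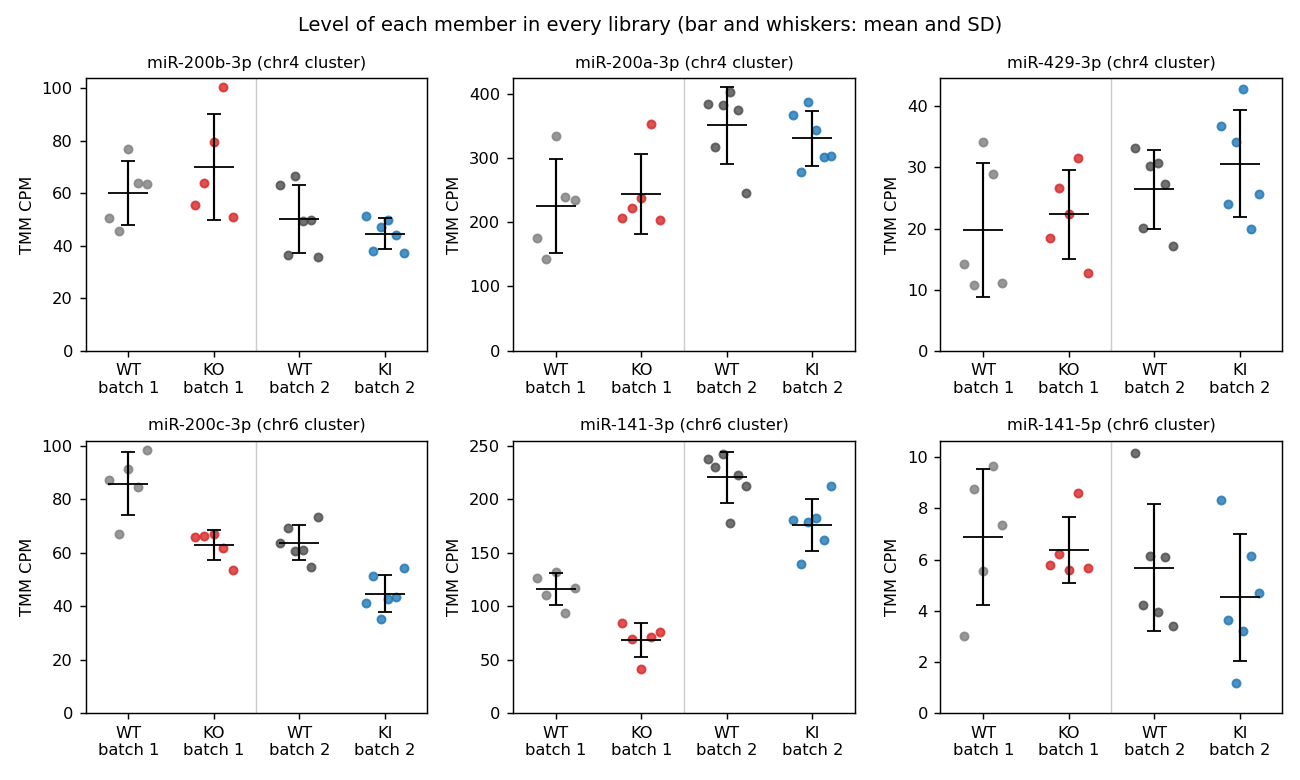
Level of each of the 6 members in TMM CPM (vertical axis, starting at 0) in every library of the 4 groups (horizontal axis). Points are libraries, and the bar and whiskers are the mean and SD. mmu-miR-141-3p is lower in all 5 KO libraries than in any WT library of batch 1, and mmu-miR-200c-3p in all 6 KI libraries than in any WT library of batch 2, whereas the upper row shows overlapping mutant and WT libraries for the 3 chromosome 4 members.

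KO was compared with the WT of its batch to ask which members change when GRTH is absent. Both 3p arms of the chromosome 6 cluster fell, and no chromosome 4 member passed the test. In edgeR's quasi-likelihood test with Benjamini-Hochberg adjustment over the 334 miRNAs tested, the threshold being an adjusted p of 0.1, 2 of the 5 members tested were called, both lower, where 20.7% of all miRNAs tested were called lower. Against this share, so few calls do not show that the members move by locus. mmu-miR-141-5p did not pass the filter on low counts and was not tested. The median log2 fold change was 0.14 over the 5 members and 0.01 over all miRNAs tested.

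mmu-miR-141-3p was measured at 127, 111, 132, 94.3 and 117 CPM in the WT samples and at 84.2, 69.1, 41.3, 71.8 and 76.3 CPM in the KO samples. The groups did not overlap, the 5 KO samples lying below the lowest WT sample, as did 11.7% of all miRNAs tested. The log2 fold change was −0.74 (SE 0.17, adjusted p = 0.00761 by edgeR), a fold of 0.599 with a 95% interval of 0.466 to 0.771. mmu-miR-200c-3p was measured at 87.1, 67.0, 91.4, 84.6 and 98.5 CPM in WT and at 65.8, 66.4, 67.0, 61.7 and 53.7 CPM in KO. Of the 5 KO samples, 4 lay below every WT sample, and the remaining KO sample was level with the lowest WT sample. Its log2 fold change was −0.41 (SE 0.13, adjusted p = 0.0327 by edgeR). This call was lost when libraries were scaled by their total counts alone (−0.30, adjusted p = 0.133 by edgeR). On that scale 1 of the 5 KO samples lay below every WT sample.

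The chromosome 4 members overlapped between KO and WT. mmu-miR-200a-3p ranged from 143 to 334 CPM in WT and from 204 to 353 CPM in KO. Its fitted log2 fold change was 0.14 (95% interval −0.35 to 0.63), with an edgeR adjusted p of 0.644, and was −0.04 without KO replicate 4. mmu-miR-200b-3p ranged from 45.6 to 76.6 CPM in WT and from 50.9 to 100.4 CPM in KO, and its log2 fold change was 0.24 (95% interval −0.22 to 0.70). mmu-miR-429-3p ranged from 10.7 to 34.2 CPM in WT and from 12.7 to 31.6 CPM in KO, and its log2 fold change was 0.19 (95% interval −0.60 to 0.98). These intervals hold changes in either direction, and that of mmu-miR-429-3p runs from a fold of 0.659 to 1.97. The edgeR adjusted p was 0.387 for mmu-miR-200b-3p and 0.707 for mmu-miR-429-3p. mmu-miR-141-5p had 3 to 12 counts per library in WT and 4 to 7 in KO, which does not resolve a difference.

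Spermatid and late spermatocyte miRNAs also moved in KO. Several on this list belong to the same families, so calls on it are not all separate. Of the 10 names, 8 were called lower, where 20.7% of all miRNAs tested were. Their median log2 fold change was −0.27, and their summed level was 219600 to 259600 CPM in WT and 185000 to 240900 CPM in KO. Vessel and stroma miRNAs moved the other way, with 4 of 5 called higher, none at 0, where 21.3% of all miRNAs tested were called higher, and a summed level of 899 to 2275 CPM in WT and 2154 to 4422 CPM in KO. Of 5 blood miRNAs, 4 were tested and 2 called higher. The 5 summed to 3725 to 4759 CPM in WT and 4034 to 5614 CPM in KO, with miR-144-3p at 0 in WT. Of 3 muscle miRNAs, only 1 was tested, and it was called higher. The 3 summed to 8.10 to 29.5 CPM in WT and 11.5 to 147 CPM in KO, with miR-206-3p at 0. Neither of the 2 Sertoli and Leydig cell miRNAs was called (68.9 to 195 CPM in WT, 45.0 to 110 CPM in KO). The part of these cells in the fall of mmu-miR-141-3p and mmu-miR-200c-3p was not tested. In bulk samples, fewer cells that express a miRNA and less of it per cell cannot be told apart.

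KI was compared with the WT of batch 2 to ask what changes when the phosphorylated form of GRTH is missing. The same pair of chromosome 6 arms, mmu-miR-200c-3p and mmu-miR-141-3p, was called lower, and again no chromosome 4 member passed the test. Of the 6 members tested among 387 miRNAs, 2 were called, both lower, where 19.9% of all miRNAs tested were called lower. As in KO, calls so few against this share do not show that the members move by locus. The median log2 fold change was −0.22 over the members and 0.00 over all miRNAs tested.

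mmu-miR-200c-3p had a lowest, median and highest level of 54.7, 62.4 and 73.4 CPM in WT and of 35.3, 43.2 and 54.4 CPM in KI. All 6 KI samples lay below all 6 WT samples, though by a narrow margin, and 8.79% of all miRNAs tested did so. With scaling by library total the groups overlapped, and 4 of 6 KI samples lay below every WT sample. The log2 fold change was −0.49 (SE 0.11, adjusted p = 0.00574 by edgeR), a fold of 0.712 with a 95% interval of 0.600 to 0.844. mmu-miR-141-3p had a lowest, median and highest level of 178, 227 and 242 CPM in WT and of 140.0, 180.0 and 212 CPM in KI. The groups overlapped, but all 6 KI samples lay below the WT median and 2 of them below every WT sample. Its log2 fold change was −0.30 (SE 0.10, adjusted p = 0.0344 by edgeR), a fold of 0.810. The call was lost with scaling by library total (adjusted p = 0.112 by edgeR) and without the filter on low counts (adjusted p = 0.107 by edgeR).

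The other members overlapped between KI and WT. mmu-miR-200a-3p had a lowest, median and highest level of 245, 378 and 403 CPM in WT and of 279, 323 and 387 CPM in KI. Its log2 fold change was −0.07 (95% interval −0.34 to 0.20, edgeR adjusted p = 0.687), and 0.01 with scaling by library total. mmu-miR-200b-3p had levels of 35.8, 49.5 and 66.3 CPM in WT and of 37.1, 45.5 and 51.3 CPM in KI, and its log2 fold change was −0.15 (95% interval −0.51 to 0.20). mmu-miR-429-3p had levels of 17.1, 28.8 and 33.2 CPM in WT and of 19.96, 29.9 and 42.9 CPM in KI, and its log2 fold change was 0.23 (95% interval −0.21 to 0.67). For mmu-miR-200a-3p the interval runs from a fold of 0.788 to 1.15, against 0.786 to 1.55 in KO. mmu-miR-141-5p had 7 to 19 counts per library in WT and 3 to 23 in KI, and its log2 fold change was −0.29 (95% interval −1.10 to 0.51). The edgeR adjusted p was 0.499 for mmu-miR-200b-3p, 0.419 for mmu-miR-429-3p and 0.569 for mmu-miR-141-5p.

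The marker lists moved in KI as well. Of the 10 spermatid and late spermatocyte miRNAs, 8 were called lower, where 19.9% of all miRNAs tested were. Their summed level was 388300 to 444300 CPM in WT and 352700 to 401600 CPM in KI. Several belong to the same families, so these calls are not all separate. Both Sertoli and Leydig cell miRNAs were called lower (114 to 188 CPM in WT, 79.3 to 108 CPM in KI). Of the 5 vessel and stroma miRNAs, 4 were called higher, where 18.1% of all miRNAs tested were, none at 0 (1605 to 2557 CPM in WT, 2485 to 5245 CPM in KI). Of the 5 blood miRNAs, 4 were tested and 3 called higher. The 5 summed to 2510 to 3399 CPM in WT and 3164 to 5193 CPM in KI, with miR-144-3p at 0. Of the 3 muscle miRNAs, 2 were tested and none was called. The 3 summed to 42.5 to 758 CPM in WT and 38.1 to 523 CPM in KI, with miR-206-3p at 0. The part of these cells in the fall of mmu-miR-200c-3p and mmu-miR-141-3p was not tested.

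**Figure D2:**
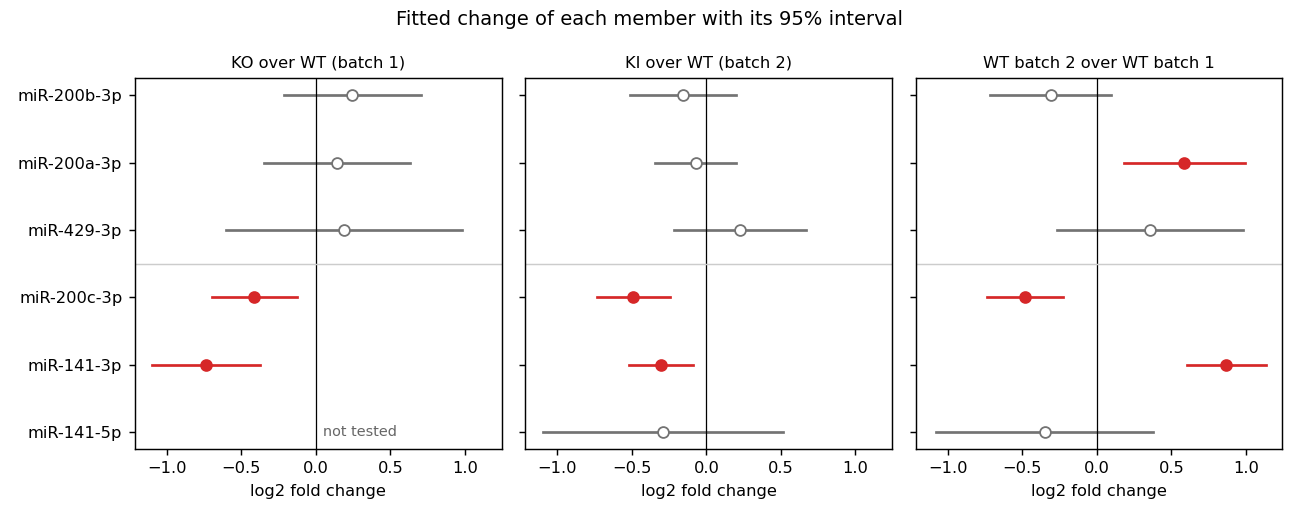
Fitted log2 fold change of each member (horizontal axis) with its 95% interval, for KO over WT, KI over WT and WT of batch 2 over WT of batch 1. Filled red points passed an adjusted p under 0.1 and open grey points did not, and the horizontal line parts the chromosome 4 members (above) from the chromosome 6 members (below). In both mutants the red points are mmu-miR-200c-3p and mmu-miR-141-3p, while between the WT groups mmu-miR-200a-3p and mmu-miR-141-3p lie to the right and mmu-miR-200c-3p to the left.

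The KO effect and the KI effect on each member were then compared in a fit of all 4 groups, since the mutants themselves were never in the same batch. No member was called, and 0 of 421 miRNAs (0%) were called by edgeR and 0 by DESeq2, with 67 at an unadjusted p under 0.05 in edgeR. mmu-miR-141-3p had the lowest adjusted p of the members. Its log2 fold change was lower in KO than in KI by 0.44 (SE 0.20, 95% interval −0.85 to −0.03, adjusted p = 0.281 by edgeR). For mmu-miR-200c-3p the effects differed by 0.07 (95% interval −0.29 to 0.43, adjusted p = 0.877 by edgeR), an interval that allows the fall to differ by up to 0.43 on the log2 scale.

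The WT groups were compared between the batches to see how far the members vary with the same genotype. These are the WT libraries that serve as controls for KO and KI. Here the called members of chromosome 6 moved in opposite directions. mmu-miR-200a-3p and mmu-miR-141-3p, of different loci and with the same seed, were called higher in batch 2. mmu-miR-200c-3p, with the other seed, was called lower. mmu-miR-429-3p, with the seed of mmu-miR-200c-3p, was not called and had a positive log2 fold change (0.36). Of the 6 members tested among 383 miRNAs, 2 were called higher, where 26.9% of all miRNAs tested were, and 1 was called lower, where 29.8% were. Against these shares, so few calls do not show that the members move by seed or by locus.

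mmu-miR-141-3p had a mean of 116 ± 14.8 CPM (SD, n = 5) in batch 1 and of 221 ± 23.6 CPM (SD, n = 6) in batch 2. All 6 samples of batch 2 lay above all 5 of batch 1, as was so for 19.3% of all miRNAs tested. Its log2 fold change was 0.87 (SE 0.12, adjusted p = 3.58e-05 by edgeR). With scaling by library total it was 0.54 (adjusted p = 0.000786 by edgeR), again with no overlap. mmu-miR-200a-3p had a log2 fold change of 0.59 (SE 0.19, adjusted p = 0.0172 by edgeR), with 4 of 6 samples of batch 2 above every sample of batch 1, and lost its call with scaling by library total (0.25, adjusted p = 0.309 by edgeR). mmu-miR-200c-3p fell by 0.48 on the log2 scale (SE 0.12, adjusted p = 0.00305 by edgeR), with 4 of 6 samples of batch 2 below every sample of batch 1. With scaling by library total the fall was larger, a log2 fold change of −0.82 (adjusted p = 3.32e-05 by edgeR), with all 6 samples of batch 2 (46.9 to 60.96 CPM by library total) below all 5 of batch 1 (71.8 to 105 CPM).

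Of the 2 other members with the seed of mmu-miR-200c-3p, mmu-miR-200b-3p had a log2 fold change of −0.31 (95% interval −0.72 to 0.10, edgeR adjusted p = 0.194), and it was called lower with scaling by library total (−0.64, adjusted p = 0.0152 by edgeR). mmu-miR-429-3p had a log2 fold change of 0.36 (95% interval −0.27 to 0.98, edgeR adjusted p = 0.337), opposite in sign to its seed partners. mmu-miR-141-5p had a log2 fold change of −0.35 (95% interval −1.08 to 0.38, edgeR adjusted p = 0.417), while the 3p arm of its hairpin rose. Of 3 muscle miRNAs, 2 were tested, and both were called higher in batch 2. The 3 summed to 8.10 to 29.5 CPM in batch 1 and 42.5 to 758 CPM in batch 2, with miR-206-3p at 0. Depth differed as given above. Of the 10 spermatid and late spermatocyte miRNAs, 4 were called higher and 4 lower. They summed to 219600 to 259600 CPM in batch 1 and 388300 to 444300 CPM in batch 2. Of the 5 blood miRNAs, 4 were tested, with 1 called lower and none higher. The 5 summed to 3725 to 4759 CPM in batch 1 and 2510 to 3399 CPM in batch 2, without overlap. In both, miR-144-3p was at 0. Of the 5 vessel and stroma miRNAs, 1 was called higher (899 to 2275 CPM in batch 1, 1605 to 2557 CPM in batch 2). Of the miR-202 arms, 1 was called higher and 1 lower (68.9 to 195 CPM in batch 1, 114 to 188 CPM in batch 2). The part of these in the differences of the members was not tested.

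Ratios between members inside a library do not depend on how libraries are scaled, so they were used to set locus against seed. These are descriptions with no test. Inside a locus, the ratios of mmu-miR-200a-3p to mmu-miR-200b-3p and of mmu-miR-141-3p to mmu-miR-200c-3p parted the batches and not the genotypes. mmu-miR-429-3p, the other chromosome 4 member with the seed of mmu-miR-200b-3p, was not set against mmu-miR-200a-3p. Between the WT groups mmu-miR-429-3p and mmu-miR-200a-3p both had a positive log2 fold change (0.36 and 0.59), so these ratios do not stand for every pair of seeds. On chromosome 4, the log2 ratio of mmu-miR-200a-3p to mmu-miR-200b-3p was 1.87 ± 0.18 in WT (SD, n = 5) and 1.82 ± 0.16 in KO of batch 1 (SD, n = 5), and 2.83 ± 0.24 in WT (SD, n = 6) and 2.89 ± 0.12 in KI of batch 2 (SD, n = 6). Its highest value among the batch 1 libraries was 2.13 (WT), below the lowest value of batch 2, 2.53 (WT). On chromosome 6, the log2 ratio of mmu-miR-141-3p to mmu-miR-200c-3p was 0.44 ± 0.23 in WT (SD, n = 5) and 0.09 ± 0.47 in KO (SD, n = 5), and 1.79 ± 0.22 in WT (SD, n = 6) and 1.98 ± 0.30 in KI (SD, n = 6). The batches again did not overlap, with a highest value of 0.72 in batch 1 and a lowest of 1.45 in batch 2.

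Over all members, the seed of mmu-miR-200a-3p and mmu-miR-141-3p took 66.2% ± 1.84 (SD, n = 5) of the family's counts in WT and 65.9% ± 3.14 in KO (SD, n = 5). In batch 2 it took 79.6% ± 1.30 in WT (SD, n = 6) and 80.2% ± 1.58 in KI (SD, n = 6). The share rose by 13.4 percentage points between the WT groups, whereas each mutant overlapped the WT of its batch. In summed CPM, the seed of mmu-miR-200b-3p, mmu-miR-200c-3p and mmu-miR-429-3p stood at 166 ± 29.6 CPM in WT (SD, n = 5) and 155 ± 28.9 CPM in KO (SD, n = 5), and at 140 ± 15.3 CPM in WT (SD, n = 6) and 120 ± 10.5 CPM in KI (SD, n = 6). The KO differences of both seeds were below 0 with TMM (log2 −0.09 and −0.12) and above 0 with scaling by library total (0.05 and 0.01).

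Across the loci and within a seed, the ratios were lower on average in the mutants. These are the near-identical pairs, so reads counted at the wrong member may have shifted these ratios by an unknown amount. The log2 ratio of mmu-miR-200c-3p to mmu-miR-200b-3p was 0.78, 0.55, 0.25, 0.41 and 0.63 in the WT samples of batch 1 and 0.25, 0.06, −0.24, −0.70 and 0.08 in the KO samples. The groups did not overlap, the highest KO value (0.248) falling just under the lowest WT value (0.254). In batch 2 its mean was 0.38 ± 0.49 in WT (SD, n = 6) and 0.00 ± 0.40 in KI (SD, n = 6), with overlapping samples. The log2 ratio of mmu-miR-141-3p to mmu-miR-200a-3p was −0.90 ± 0.47 in WT (SD, n = 5) and −1.84 ± 0.54 in KO (SD, n = 5), with 4 of 5 KO samples below every WT sample. In batch 2 it was −0.66 ± 0.33 in WT (SD, n = 6) and −0.91 ± 0.21 in KI (SD, n = 6), and no KI sample lay below every WT sample.

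**Figure D3:**
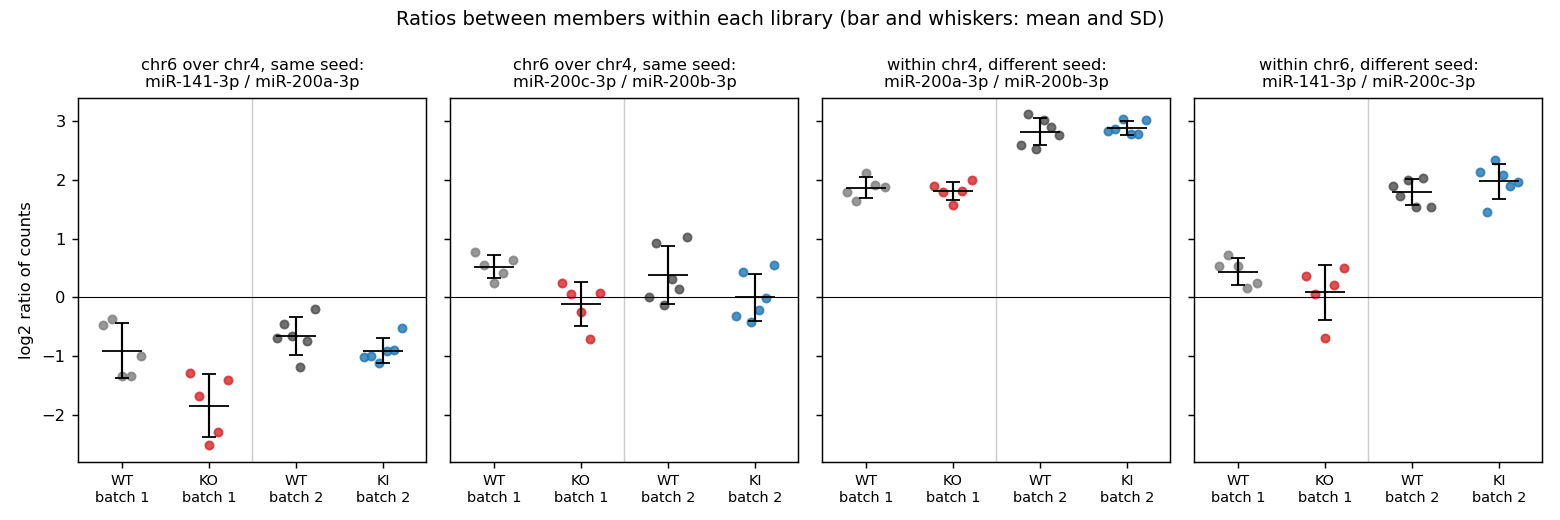
Log2 ratio of the counts of 2 members inside each library (vertical axis) in the 4 groups (horizontal axis), with the mean and SD. The 2 left panels set chromosome 6 against chromosome 4 within a seed and have their lowest means in KO, while the 2 right panels set the seeds against each other within a locus and step up from batch 1 to batch 2 with overlap between each mutant and its WT.

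Summed over members, the chromosome 6 cluster was at 217, 186, 229, 189 and 223 CPM in the WT samples of batch 1 and at 156, 142, 114, 142 and 136 CPM in the KO samples, with no overlap. The chromosome 4 cluster was at 240.0, 199, 445, 332 and 309 CPM in WT and at 280.4, 313, 339, 485 and 267 CPM in KO, with wide overlap. In batch 2 the chromosome 6 cluster was at 290.1 ± 25.7 CPM in WT (SD, n = 6) and 226 ± 25.9 CPM in KI (SD, n = 6), and the chromosome 4 cluster at 427 ± 76.0 CPM (SD, n = 6) and 405 ± 54.0 CPM (SD, n = 6). KI and WT overlapped for both clusters. For chromosome 6 the highest KI sum was 271 CPM and the lowest WT sum 243 CPM. The log2 ratio of mean sums, mutant over WT, was −0.60 in KO and −0.36 in KI for chromosome 6, and 0.14 in KO and −0.08 in KI for chromosome 4, where the KI value was 0.02 with scaling by library total. The KO value for chromosome 4 was −0.03 without KO replicate 4 and 0.32 without WT replicate 3 of batch 1. The chromosome 6 cluster took 41.6% ± 6.46 (SD, n = 5) of the family's counts in WT of batch 1, 29.7% ± 5.57 in KO (SD, n = 5), 40.8% ± 5.51 in WT of batch 2 (SD, n = 6) and 35.9% ± 3.79 in KI (SD, n = 6).

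How the members varied together between libraries of the same group was then described. Deviations of log2(CPM + 1) from the group mean were correlated over the 22 libraries, as a description. The chromosome 4 products varied together, with a Pearson r of 0.85 between mmu-miR-200b-3p and mmu-miR-200a-3p, 0.79 between mmu-miR-200a-3p and mmu-miR-429-3p and 0.75 between mmu-miR-200b-3p and mmu-miR-429-3p. WT replicate 3 of batch 1 was the highest WT library of that batch for all 3. On chromosome 6, r was −0.04 between mmu-miR-200c-3p and mmu-miR-141-3p and 0.01 between the arms of Mir141. Members that share a seed across the loci also had values near 0, −0.09 for mmu-miR-200b-3p with mmu-miR-200c-3p and 0.06 for mmu-miR-200a-3p with mmu-miR-141-3p. For pairs with mmu-miR-200c-3p or mmu-miR-141-5p a value near 0 says little where their spread was close to that of counting, which was not so in every group. The CV of mmu-miR-200c-3p between libraries was 8.83% in KO, where counting alone gives 13.9%, and 10.4% in WT of batch 2, where counting gives 8.56%. For mmu-miR-200a-3p in the same groups the CV was 25.4% against 7.11% and 16.98% against 3.71%. The CV of mmu-miR-200c-3p was 13.7% against 10.5% in WT of batch 1 and 15.5% against 9.98% in KI. For mmu-miR-141-5p in KI it was 54.5% against 37.0%. Whether the loci differ in this respect was not tested. The points share the scaling of each library, and mmu-miR-429-3p and mmu-miR-141-5p rest on few counts.

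**Figure D4:**
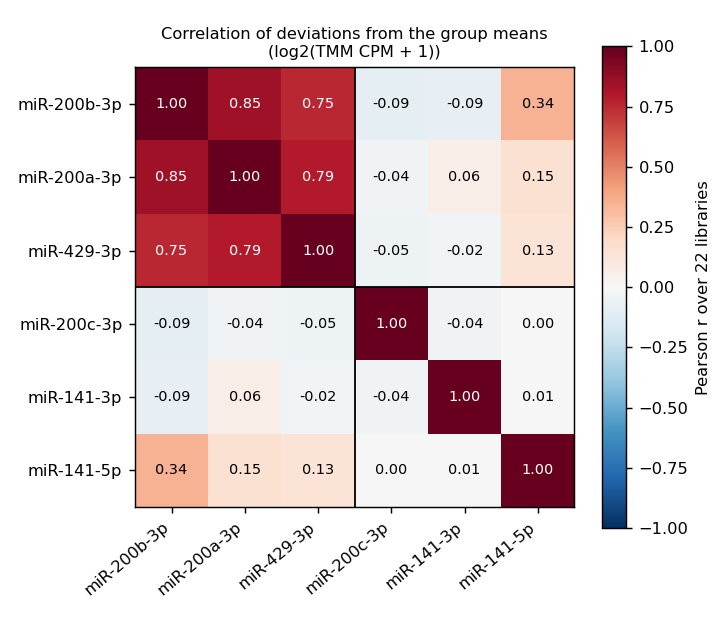
Pearson r between members of their deviations from the group means in log2(TMM CPM + 1), over 22 libraries. Rows and columns are the 6 members, colour and printed value give r, and lines part the loci. The block of chromosome 4 members stands at 0.75 to 0.85, while all pairs involving a chromosome 6 member lie between −0.09 and 0.34.

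The arms were unequal in every hairpin. Over all 22 libraries the 3p arm had 6251 counts and the 5p arm 202 counts at Mir141, a 5p share of 3.13%. The share at Mir429 was alike, 2.94% (30 counts against 992), all of it from batch 1. Both were larger than at Mir200b (0.520%), Mir200a (0.216%) and Mir200c (0.137%), whose 5p arms never passed 8 counts in a library. By library, the 5p share of Mir141 was 5.78% ± 2.72 in WT (SD, n = 5) and 8.83% ± 2.395 in KO of batch 1 (SD, n = 5), and 2.47% ± 0.897 in WT (SD, n = 6) and 2.52% ± 1.34 in KI of batch 2 (SD, n = 6). KO overlapped its WT, with 2 of 5 KO samples above every WT sample. In CPM, the 5p arm stood at 6.87 ± 2.65 CPM in WT (SD, n = 5) and 6.36 ± 1.28 CPM in KO (SD, n = 5).

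The 5p arm of Mir429 was counted in batch 1 alone. mmu-miR-429-5p had 1, 1, 4, 2 and 4 counts in the WT samples and 4, 1, 3, 4 and 6 counts in the KO samples of batch 1. Its share of the hairpin's pooled counts was 9.84% in WT and 15.65% in KO, against 5.72% and 8.46% for the 5p arm of Mir141. It had 0 counts in all 12 libraries of batch 2, which were deeper. By library total, its level in WT of batch 1 was 12.7-fold that of a floor of 3 counts over WT of batch 2. This ratio rests on 12 counts in batch 1 WT, whose own counting error was not included. No count was seen for mmu-miR-429-5p in KI, where 3 counts over the group would be 0.198 CPM.

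The miRNAs that varied most like each cluster were sought among 291 other names with a mean of at least 10 CPM in each group, as the Pearson r of log2(CPM + 1) less the batch mean over the 22 libraries. Different names led for the 2 loci. The chromosome 6 cluster was nearest to miR-465a-5p (r = 0.90), miR-881-3p (r = 0.88) and miR-878-5p (r = 0.87). These are neighbours on the minus strand of chromosome X, between 66801554 and 66839121. Like mmu-miR-200c-3p and mmu-miR-141-3p, they were called lower in KO and in KI. By Spearman rho miR-669f-3p of chromosome 2 came first for this cluster (0.90), and miR-878-5p was not among the first 3. The batch mean and not the group mean was taken off, so a shared difference between genotypes enters these values. miR-465a-3p, the other arm of the first hairpin, is on the list of spermatid and late spermatocyte miRNAs. miR-465a-5p had a log2 fold change of −0.47 in KO (edgeR adjusted p = 0.00183) and −0.30 in KI (edgeR adjusted p = 0.00105). The chromosome 4 cluster was nearest to miR-204-5p (r = 0.85), miR-181a-5p (r = 0.75) and let-7b-5p (r = 0.72), none of which was called in KO or in KI. The clusters themselves had an r of −0.04 with each other.

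Because the family is known from epithelia, 9 other miRNAs associated with epithelial cells were read beside it, of which 8 were tested. In KO, 2 were called lower, miR-96-5p (log2 fold change −0.66) and miR-182-5p (−0.24), which come from one cluster, and none was called higher, where 20.7% of all miRNAs tested were called lower and 21.3% higher. In KI, 4 were called lower, miR-203-3p (−0.56), miR-96-5p (−0.53), miR-183-5p (−0.50) and miR-182-5p (−0.38), and 2 were called higher, miR-375-3p (0.28) and miR-194-5p (0.21), against 19.9% and 18.1% of all miRNAs tested. The median log2 fold change of the 8 was −0.15 in KO and −0.26 in KI. Between the WT groups 2 were called higher in batch 2, miR-203-3p (1.04) and miR-375-3p (0.38), and 1 was called lower, miR-96-5p (−0.55), against 26.9% and 29.8%. The list thus held calls in both directions in KI and between the WT groups.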

How the data were processed

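Small RNA libraries of 22 samples of round spermatids were analysed from the deposited counts, whole read numbers for each mature miRNA. Per the methods and the submitters' processing notes, the authors trimmed adapters with cutadapt 3.4, aligned reads to GRCm38 (mm10) with Bowtie2 2.4.2 in local mode with many alignments per read allowed, and counted them strand-specifically with featureCounts of Subread 2.0.1. Per-sample columns left unused numbered 0. Groups follow the labels, which name genotype and batch. The methods give the batches in the opposite order, and the labels were followed. Nothing says that samples of a group came from separate mice, so p-values measure the spread between these samples. The 50 pairs of samples within groups all differed by more than counting noise (chi-square per degree of freedom 8.32 to 134).

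All miRNAs were fitted with edgeR 4.0.16 (quasi-likelihood test, TMM, filterByExpr, Benjamini-Hochberg adjustment, calls at an adjusted p below 0.1 as in the study) in R 4.3.3, each mutant with the WT of its batch, and DESeq2 1.42.0 was an alternative. The fits were tested on simulated data. Other alternatives were scaling by library total, RLE size factors, no filter, leaving out each sample and a replicate block. Sums, shares, ratios and correlations are descriptions with no test. Python 3.11.15 with pandas 2.3.3 was used. Coordinates are 1-based, and sequences are from RefSeq for GRCm38.p6 and gene models from GENCODE.

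The miRNAs named are the 6 members, the other arms of their hairpins, and those called in a list of 9 epithelial miRNAs. The 3 miRNAs most like each cluster by Pearson r, and the first by Spearman rho, are named too. Marker lists were written by hand. Members and lists were chosen with earlier results of these data known.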

Additional observations from a re-analysis of the deposited data

Results flagged for a closer look

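The sample at either end of each group was compared with its neighbours by Dixon's ratio at the 95% level for 72 sets of values, the members, their sums and their ratios in each group, and 7 stood apart. Chance flags about 1 set in 20. KO replicate 4 stood above the other KO samples for mmu-miR-200a-3p (353 CPM), mmu-miR-141-5p (8.61 CPM), the summed seed of mmu-miR-200a-3p and mmu-miR-141-3p (425 CPM) and all 6 members together (627 CPM), and these values share mmu-miR-200a-3p or the library. It was the shallowest library, with 559957 counts. KO replicate 3 was low for mmu-miR-141-3p (41.3 CPM). WT replicate 4 of batch 2 was low for the chromosome 6 cluster (243 CPM). KI replicate 6 had the highest log2 ratio of mmu-miR-141-3p to mmu-miR-200a-3p in its group (−0.51).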

How the results depend on the processing

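Of the 7 calls of members, 4 held under each alternative run: mmu-miR-141-3p in KO, mmu-miR-200c-3p in KI, and mmu-miR-200c-3p and mmu-miR-141-3p between the WT groups. The edgeR or DESeq2 adjusted p of mmu-miR-200c-3p in KO ranged from 0.0147 to 0.133, of mmu-miR-141-3p in KI from 0.0146 to 0.112, and of mmu-miR-200a-3p between the WT groups from 1.52e-05 to 0.309. With scaling by library total, 1 member was called in KO and 1 in KI in place of 2 each. This scaling moved the median over all miRNAs (log2 fold change) from 0.01 to 0.13 in KO and from −0.01 to −0.34 between the WT groups. Without the filter on low counts, 1 member was called in KI. The cause was not tested. The log2 fold change of mmu-miR-200a-3p in KI turned to 0.0129 with library totals, and the KO minus KI difference of mmu-miR-200c-3p turned to −0.0125 without the filter.

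Leaving out 1 sample left 2 members called in KO and in KI, 0 in the difference of effects and 3 to 4 between the WT groups. mmu-miR-200b-3p was called there without WT replicate 3 of batch 2 (adjusted p = 0.0679 by edgeR), and mmu-miR-429-3p without WT replicate 3 of batch 1 (adjusted p = 0.0729 by edgeR). In KO, mmu-miR-200a-3p ranged from −0.0372 to 0.331. For the difference of effects the ranges were −0.0587 to 0.396 for mmu-miR-200a-3p, −0.28 to 0.23 for mmu-miR-429-3p, −0.0228 to 0.143 for mmu-miR-200c-3p and −0.0558 to 0.466 for mmu-miR-141-5p, and 26 miRNAs were called of all tested without KI replicate 2, none of them a member.

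Same-numbered samples deviated together with a mean correlation of 0.02 in batch 1 and 0.19 in batch 2, not every pair passed 0.1, and 2 of 10 and 5 of 12 samples were nearest to the sample with their own number, so the numbers were not taken to pair the samples. With the replicate number as a block, 2 members were called in KO, 2 in KI and 0 in the difference of effects, where 25 miRNAs were called in place of 0 and mmu-miR-429-3p turned to 0.0227. Depth limits mmu-miR-141-5p and mmu-miR-429-3p most.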
